A study of Mus musculus with 6 samples.

Results

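The 10 genes described here encode the Frizzled receptors *Fzd1* to *Fzd8* and the coreceptors *Lrp5* and *Lrp6*, which receive Wnt ligands at the cell surface. They were chosen by symbol from the 18049 genes of a crypt RNA-Seq table, and all 10 were present and passed the filter on low values. The libraries held total RNA from colonic crypts of 6 mice of a C57BL/6J-based model of Lynch syndrome, with 3 control mice and 3 mice given GSK503, a small-molecule inhibitor of the histone methyltransferase EZH2. Mice in both groups carried *Villin-Cre*, a transgene active in the intestinal epithelium and not in the stroma, which deletes a floxed gene there, together with a humanized knockin of the TGF-β receptor II gene. Both groups ate a Western-style diet from 8 weeks of age. GSK503 was injected into the tail vein at 200 μg/kg over 9 weeks, and controls received captisol vehicle by the same route. The age at collection is not given in the sources used here.

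Wnt proteins bind the extracellular cysteine-rich domain of a Frizzled, a receptor with a bundle of membrane-spanning helices, and draw in the single-pass proteins LRP5 or LRP6. Dishevelled then binds the Frizzled tail and Axin binds the phosphorylated LRP tail, which spares β-catenin from degradation. In the intestine this signal maintains stem cells at the crypt base. Some Frizzleds, *Fzd3* and *Fzd6* above all, are better known for planar cell polarity, the orientation of cells within a sheet, which does not need β-catenin.

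Values are the authors' estimated counts after scaling by library size and TMM factor, called TMM-scaled counts here. A library held between 108162765 and 135084912 estimated counts, and the least abundant member, *Fzd2*, was backed by between 270 and 370 of them per mouse. The 6 epithelial markers were *Krt8*, *Epcam*, *Cldn7*, *Cdh1*, *Vil1* and *Krt20*. They summed to between 9565 and 10455 in control mice and between 10029 and 11670 in treated mice. All 6 had a log2 fold change (log2FC, treated minus control) above 0, and 0 were called. *Ezh2*, the gene of the targeted enzyme, had 46.7, 37.4 and 46.5 in the controls and 36.6, 35.2 and 36.3 with GSK503 (limma adjusted p = 0.291). *Xist*, an RNA made from the inactive X chromosome of females, was below 1 in the control mice and at least 825 in the treated mice, and the Y-linked gene *Uty* was between 42.5 and 53.7 in the control mice and at most 1.08 in the treated mice. Sex-linked expression thus separated the groups completely, and treatment and sex cannot be told apart in any comparison below. Beyond that, fewer cells of a type and less RNA per cell cannot be told apart in bulk crypts.

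None of the 10 receptor genes passed an adjusted p of 0.05 (limma, Benjamini-Hochberg over 16670 genes), where 0.642% of all genes tested did. Of all genes tested, 0.498% passed with log2FC above 0 and 0.144% with log2FC below 0. A limma adjusted p below 0.1 was reached by 1.97% of all genes (0.558% with log2FC below 0). *Fzd3* was the 1 member below it, and its mean was lower. An unadjusted limma p below 0.05 was reached by 13.3% of all genes (6.27% with log2FC below 0). It was reached by 3 members, *Fzd3*, *Fzd5* and *Lrp6*, all with a lower mean. With limma-voom on recovered counts the number of members below an adjusted p of 0.05 was also 0. The mean was lower in treated mice for 8 members and higher for 2, *Fzd1* and *Fzd2*, and log2FC was below 0 for 51.1% of all genes. The median log2FC was -0.10 over the members and -0.01 over all genes tested. In 3 members, *Fzd3*, *Fzd6* and *Lrp6*, each mouse given GSK503 lay below all 3 controls, a pattern found in 9.22% of all genes. No member had the opposite pattern, which 9.84% of all genes showed.

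Levels of different genes were compared after division by exon length, in TMM-scaled counts per kb. *Fzd5* stood highest, with a mean of 23.8 ± 2.71 (SD, n = 6 mice). Among its known roles, *Fzd5* is needed for the maturation of Paneth cells in the small intestine. *Lrp6* followed at 17 ± 2.44, and the ranges of these 2 genes over the 6 mice overlapped, between 19.7 and 26.4 for *Fzd5* and between 14.8 and 21.4 for *Lrp6*. *Lrp5* came after them at 10.1 ± 0.908 and did not overlap either neighbour. *Fzd1* came next at 4.89 ± 0.45, then *Fzd8* at 3.12 ± 0.246 and *Fzd7* at 2.6 ± 0.212, and these 3 ranges stood apart from each other. *Fzd7* is known as a Wnt receptor of intestinal stem cells. At the low end, *Fzd6* at 1.4 ± 0.221 overlapped *Fzd3* at 1.34 ± 0.521, *Fzd3* overlapped *Fzd4*, and *Fzd4* at 0.737 ± 0.0827 overlapped *Fzd2* at 0.675 ± 0.0963 (SD, n = 6 mice for each). The order of neighbours near the top depended on the length used, because *Lrp6* has several annotated transcripts of different lengths. With each gene divided by its longest transcript, *Lrp6* ranked first at 27 and *Fzd5* second at 23.8, still with overlapping ranges. By that length *Fzd7* at 3.37 exchanged places with *Fzd8* at 3.12. The ranges of *Fzd7* (between 2.97 and 3.64) and *Fzd8* (between 2.83 and 3.38) then overlapped.

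**Figure D1:**
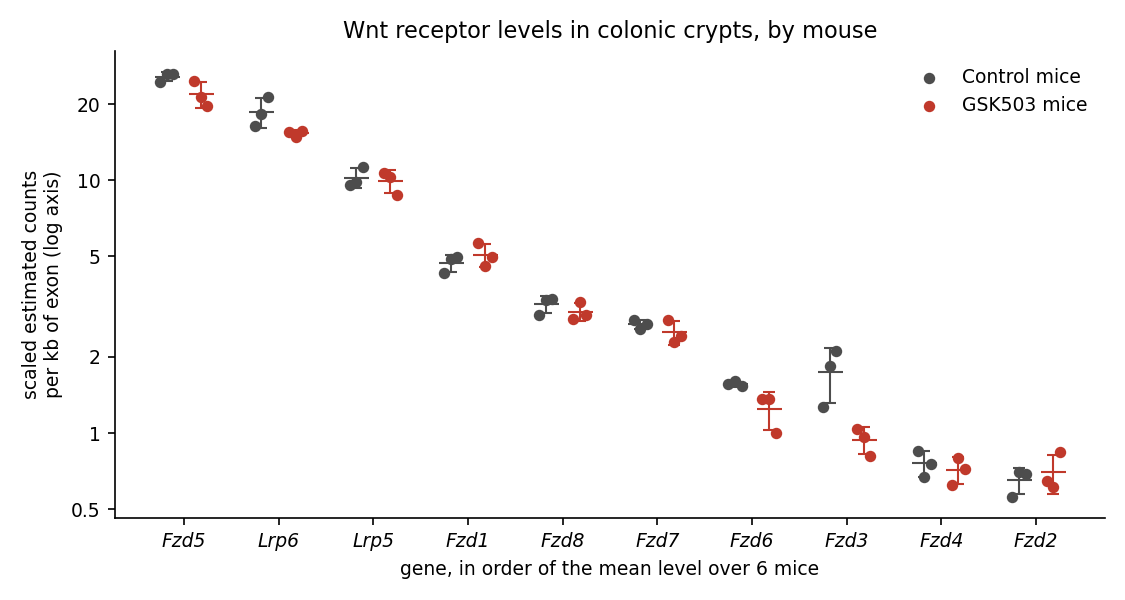
Level of each gene per mouse, as TMM-scaled counts per kb of exon on a log axis, with genes in order of their mean over 6 mice. Points are mice, horizontal bars are group means and error bars are SD (n = 3 mice per group). *Fzd5*, at 23.8, lay more than an order of magnitude above *Fzd2*, at 0.675, and for *Fzd3*, *Fzd6* and *Lrp6* the treated mice lay below the control mice.

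*Fzd3* had the largest difference of the 10 genes. It encodes a Frizzled required for axon guidance and planar polarity. The gene spans bases 65429573 to 65499933 of chromosome 14 (GRCm39, minus strand), with 7 exons in its canonical transcript, of which 6 hold coding sequence. Its TMM-scaled count was 16.8, 24.4 and 27.9 in control mice 1 to 3, against 13.7, 12.8 and 10.8 in treated mice 1, 2 and 3. The treated mice were all below the lowest control mouse, and the control mice were spread more widely than the treated mice. The group means were 23 ± 5.68 and 12.4 ± 1.49 (SD, n = 3 mice each). The log2FC was -0.86 (standard error 0.18, 95% interval -1.27 to -0.45, limma adjusted p = 0.0753), on the log2(value + 0.1) scale. Over 17 alternative analyses the log2FC stayed between -1.07 and -0.71, with a limma adjusted p from 0.0183 to 0.279. It was below 0.05 in 2 of the 17, without control mouse 1 (log2FC -1.07, limma adjusted p = 0.0183) and with scaling by library size alone (log2FC -0.97, limma adjusted p = 0.0406). The latter moved the median of all genes to -0.12. With treated mouse 3 left out, *Fzd3* had a log2FC of -0.76 (limma adjusted p = 0.109).

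The 250 bases before the start of the canonical *Fzd3* transcript are shown because EZH2 belongs to the Polycomb complex PRC2, which is known to favour CpG-rich promoters. Beside them stand those of *Lrp6*, whose treated mice also lay below the control mice, and of *Fzd5*, the most abundant Frizzled. All 3 are written 5′ to 3′ on the strand of the gene in GRCm39, with CpG dinucleotides in capitals. *Fzd3* is from chr14:65499913-65500162, *Lrp6* from chr6:134544213-134544462 and *Fzd5* from chr1:64776935-64777184, each on the minus strand. Another annotated transcript of *Fzd3* starts inside its window.
Fzd3: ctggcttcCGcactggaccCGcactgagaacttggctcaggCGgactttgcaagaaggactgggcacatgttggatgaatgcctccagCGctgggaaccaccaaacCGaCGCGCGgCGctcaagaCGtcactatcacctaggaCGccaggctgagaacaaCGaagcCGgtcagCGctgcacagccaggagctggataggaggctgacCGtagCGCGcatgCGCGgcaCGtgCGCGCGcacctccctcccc
Lrp6: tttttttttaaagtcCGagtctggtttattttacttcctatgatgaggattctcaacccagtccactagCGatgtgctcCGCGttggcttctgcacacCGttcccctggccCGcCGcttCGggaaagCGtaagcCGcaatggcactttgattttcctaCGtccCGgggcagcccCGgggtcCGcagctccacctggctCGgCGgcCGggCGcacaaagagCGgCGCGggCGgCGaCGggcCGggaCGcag
Fzd5: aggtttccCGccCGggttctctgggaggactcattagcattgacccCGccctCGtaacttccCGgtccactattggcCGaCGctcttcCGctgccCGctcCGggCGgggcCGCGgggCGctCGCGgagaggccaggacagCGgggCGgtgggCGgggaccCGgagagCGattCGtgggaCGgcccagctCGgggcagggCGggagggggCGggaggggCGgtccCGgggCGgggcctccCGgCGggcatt
The *Fzd3* sequence holds 23 CpG, that of *Lrp6* 26 and that of *Fzd5* 31, against a median of 11 over 15449 protein-coding promoters of the same length. *Fzd6*, which also had non-overlapping groups, has 6, and another of its annotated transcripts also starts inside its window. At least 15 CpG were found in 7 of the 10 members, *Fzd1*, *Fzd3*, *Fzd4*, *Fzd5*, *Fzd7*, *Lrp5* and *Lrp6*, and in 35.9% of all promoters. Of the 3 members with non-overlapping groups, *Fzd3* and *Lrp6* had CpG counts above the median of 11 and *Fzd6* alone had a count below it. The letters TCAAAG, the core of the TCF/LEF motif, were searched on both strands. They occurred in the *Lrp6* window, as ctttga on the strand shown, and in no other member's window, while 12.3% of all promoters held them. These counts describe sequence, and histone marks were not analysed here.

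*Fzd6*, the closest relative of *Fzd3* and known for the orientation of hair follicles, had 10.7, 11 and 10.5 TMM-scaled counts in the controls and 9.41, 9.37 and 6.86 with GSK503. The control mice were nearly equal, and treated mouse 3 was the lowest. The log2FC was -0.34 (95% interval -0.68 to 0.00, limma adjusted p = 0.38). Leaving out single mice gave values between -0.41 and -0.19, the latter without treated mouse 3. The log2 ratio of *Fzd3* to *Fzd6* within a mouse, which the scaling between libraries cannot change, was 0.65, 1.15 and 1.40 in the controls and 0.54, 0.45 and 0.65 with GSK503. Control mouse 1 and treated mouse 3 were equal to 2 decimals. The group means differed by -0.52 (exact two-sided permutation test, p = 0.10, the smallest p that 3 mice against 3 can give, and 0.2 after adjustment over the 4 ratios computed). The log2 ratio of *Fzd3* to *Fzd5* was -3.33, -2.90 and -2.72 in the controls and -3.64, -3.53 and -3.67 with GSK503, a difference of -0.63 with the same exact permutation p.

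*Fzd5* holds most of the summed Frizzled level, and its groups overlapped. *Fzd5* had 169, 182 and 183 TMM-scaled counts in the controls and 171, 148 and 137 with GSK503. Treated mouse 1 lay among the controls and the other two below them. The log2FC was -0.24 (95% interval -0.44 to -0.03, limma adjusted p = 0.306), and -0.16 without treated mouse 3. *Fzd8*, its closest paralog, had 17.6, 20.1 and 20.2 in the controls and 16.9, 19.6 and 17.6 with GSK503, with overlapping groups. Its log2FC was -0.10 (95% interval -0.34 to 0.15, limma adjusted p = 0.754).

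*Fzd1*, *Fzd2* and *Fzd7* form a subfamily that signals largely through β-catenin. *Fzd1* had 18, 20.5 and 20.8 TMM-scaled counts in the controls and 23.6, 19.2 and 20.9 with GSK503, a log2FC of 0.10 (95% interval -0.15 to 0.35). *Fzd2* had 2.06, 2.58 and 2.53 in the controls and 2.36, 2.24 and 3.08 with GSK503, a log2FC of 0.09 (95% interval -0.43 to 0.61). *Fzd7* had 16.4, 15.1 and 15.9 in the controls and 16.5, 13.4 and 14.2 with GSK503, a log2FC of -0.11 (95% interval -0.37 to 0.15). For none of these 3 genes did the groups separate (limma adjusted p from 0.734 to 0.909). Scaling by library size alone, which moved the median of all genes from -0.01 to -0.12, put *Fzd1* at -0.01 and *Fzd2* at -0.02, so both stayed above that median. The interval of *Fzd2*, the gene with the lowest level, was the widest of the 10.

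*Fzd4*, the receptor for Norrin in retinal vessels, had 5.82, 4.59 and 5.18 TMM-scaled counts in the controls and 4.27, 5.46 and 4.96 with GSK503. The groups overlapped, with a log2FC of -0.08 (95% interval -0.49 to 0.32, limma adjusted p = 0.889).

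**Figure D2:**
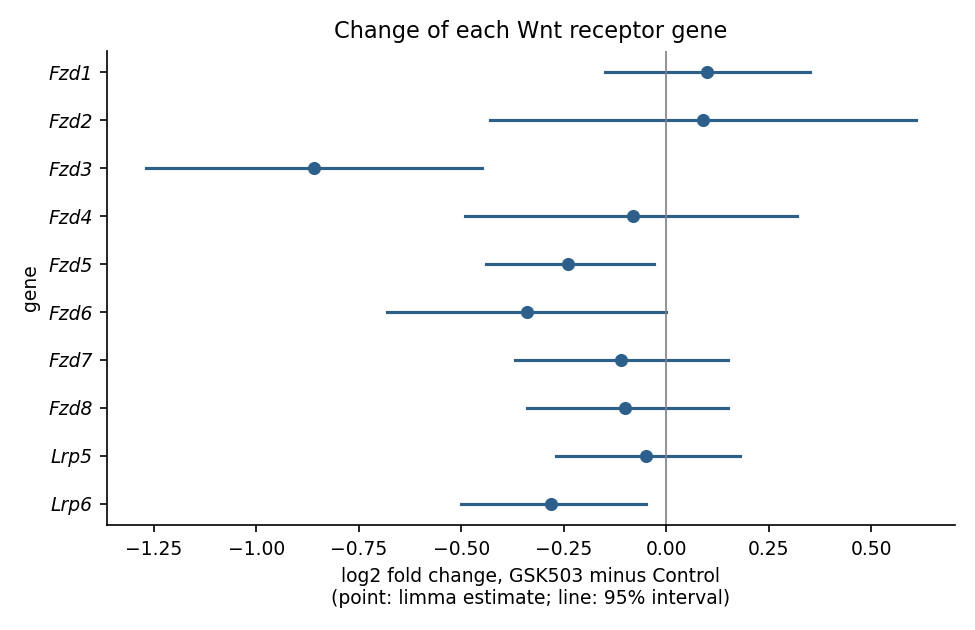
Log2 fold change of each gene, treated minus control mice, with points for limma's estimates on log2(value + 0.1) and lines for 95% intervals. *Fzd3*, at -0.86, lies farthest from 0, the intervals of *Fzd3*, *Fzd5* and *Lrp6* leave out 0, and no gene passed an adjusted p of 0.05.

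Because *Fzd1*, *Fzd2* and *Fzd7* are similar, reads could be divided between them wrongly. Their longest identical stretches, all in coding sequence, are shown for this reason. They are written 5′ to 3′ in the sense of the transcript, and all bases are in lower case.
Fzd1 and Fzd2: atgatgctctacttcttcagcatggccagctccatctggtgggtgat
Fzd1 and Fzd7: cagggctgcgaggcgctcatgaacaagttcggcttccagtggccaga
Fzd2 and Fzd7: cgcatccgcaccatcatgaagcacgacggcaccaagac
In GRCm39 the first lies in the single exon of *Fzd1* on chromosome 5 from 4806331 to 4806377, the second in the same exon from 4806964 to 4807010, and the third in the single exon of *Fzd2* on chromosome 11 from 102496890 to 102496927. They are 47, 47 and 38 bases long, shorter than the 76-base reads. Across all 45 pairs of members, no window of 76 bases was shared between annotated transcripts.

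As a share of the summed Frizzled level per kb, *Fzd5* and *Fzd8* together made up 70.7%, 70.6% and 70% in the controls and 69.4%, 69.8% and 67.7% with GSK503. *Fzd1*, *Fzd2* and *Fzd7* made up 19.8%, 19.5% and 19.6% in the controls and 23%, 21.3% and 24.7% with GSK503. *Fzd3* and *Fzd6* made up 7.31%, 8.23% and 8.56% in the controls and 6.09%, 6.63% and 5.43% with GSK503. In these 3 subfamilies the groups did not overlap, and the differences in percentage points were -1.46, 3.3 and -1.99, each with p = 0.10 by an exact two-sided permutation test and 0.133 after adjustment over 4 subfamilies. The 4th, *Fzd4* alone, held between 1.58% and 2.27% of the total, with overlapping groups. The 4 shares of a mouse add up to the whole, so their differences depend on each other. In level, *Fzd1*, *Fzd2* and *Fzd7* had log2FC values of 0.10, 0.09 and -0.11, each with overlapping groups. Without treated mouse 3 the difference for *Fzd5* and *Fzd8* was -0.83 points (exact two-sided permutation test, p = 0.20). Without the division by length, the difference for this pair was 0.49 points in the other direction. The summed Frizzled level was 38.6, 41.9 and 42.6 per kb in the controls and 39.5, 35.2 and 33.4 with GSK503, with treated mouse 1 inside the control range (exact two-sided permutation test, p = 0.20).

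**Figure D3:**
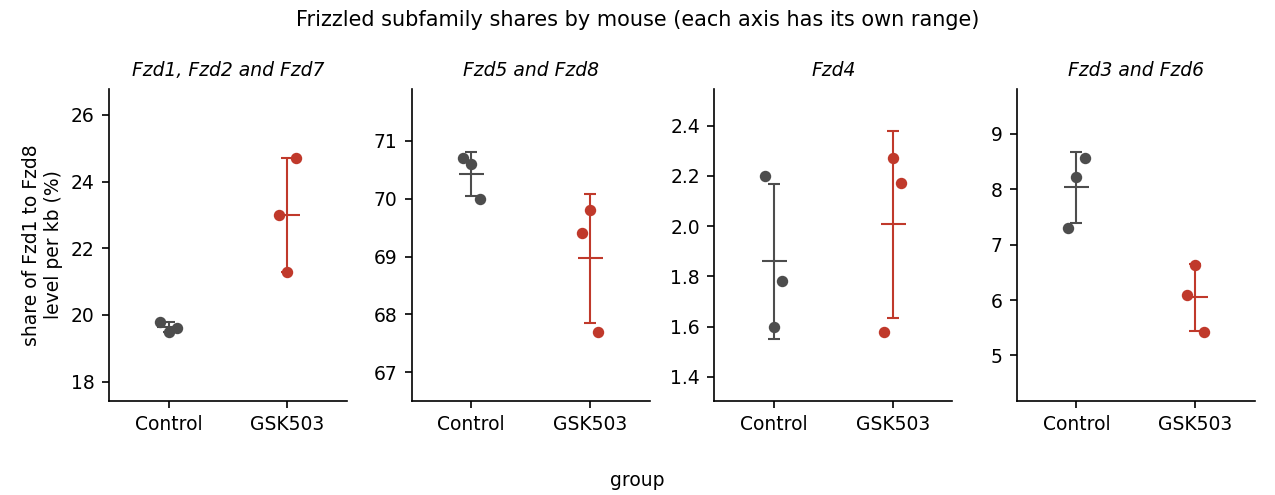
Share of each Frizzled subfamily in the summed level of *Fzd1* to *Fzd8* per kb, in percent, for each mouse. Each panel has its own vertical range that does not start at 0. Points are mice, horizontal bars are means and error bars are SD (n = 3 mice per group). The share of *Fzd1*, *Fzd2* and *Fzd7* averaged 19.7% in control mice and 23% in treated mice. The shares of a mouse add up to the whole, so the panels are not independent.

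The coreceptors LRP5 and LRP6 are close relatives, best known for bone mass and for embryonic patterning, respectively. *Lrp6* spans bases 134423439 to 134544212 of chromosome 6 (GRCm39, minus strand). Its TMM-scaled count was 253, 280 and 330 in the controls and 239, 228 and 243 with GSK503. The treated mice lay close together and below the control mice, of which control mouse 3 stood highest. The log2FC was -0.28 (standard error 0.10, 95% interval -0.50 to -0.05, limma adjusted p = 0.267), and leaving out single mice kept it between -0.36 and -0.17, the latter without control mouse 3. *Lrp5* had 94.5, 96.4 and 111 in the controls and 106, 102 and 85.8 with GSK503, so the groups overlapped. Its log2FC was -0.05 (95% interval -0.27 to 0.18, limma adjusted p = 0.89). The log2 ratio of *Lrp5* to *Lrp6* within a mouse was -1.42, -1.54 and -1.57 in the controls and -1.18, -1.16 and -1.50 with GSK503. Treated mouse 3 was inside the control range, and the difference of 0.23 gave p = 0.20 by the exact two-sided permutation test (0.267 adjusted over the 4 ratios). The summed level of both coreceptors was 26, 28 and 32.7 per kb in the controls and 26.2, 25.1 and 24.5 with GSK503, with treated mouse 1 inside the control range (exact two-sided permutation test, p = 0.20).

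Transcript length moved with the direction of change across the whole table. The median log2FC was 0.07 in the decile of genes with the shortest transcripts and -0.08 in the decile with the longest. In the latter, log2FC was below 0 for 65.9% of genes. *Fzd3*, *Lrp5* and *Lrp6* belong to the decile with the longest transcripts, and *Fzd4* and *Fzd5* to the one before it, whose median was -0.05. *Fzd6*, by contrast, belongs to decile 6, with a median of 0.01. The part of length in the differences of *Fzd3*, *Fzd5*, *Lrp5*, *Lrp6* and the other members was not tested.

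**Figure D4:**
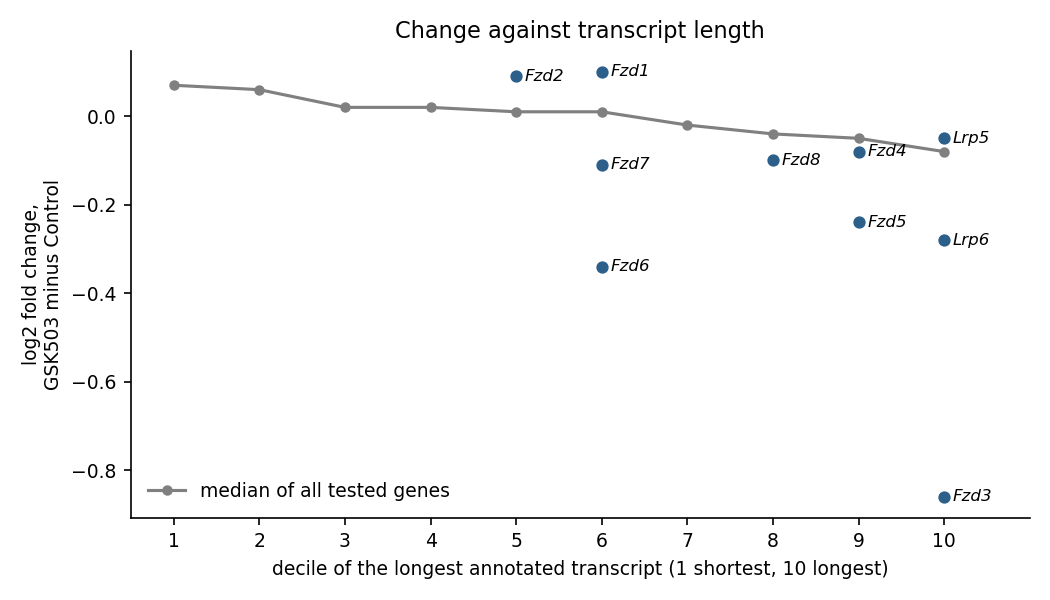
Log2 fold change against the decile of the longest annotated transcript, from shortest (1) to longest (10). The grey line joins the medians of tested genes with an annotated length, which run from 0.07 to -0.08, and the blue points are the receptor genes. *Fzd3* lies farthest below the line.

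Some cell type markers moved with the groups as well. Enteroendocrine markers, which define the hormone-secreting cells, summed to between 189 and 237 in control mice and between 119 and 154 in treated mice. In this list 6 of 6 genes had a log2FC below 0, and 3 of them were called. Goblet cell markers, for the mucus-secreting cells, summed to between 10845 and 19180 in control mice and between 33294 and 51612 in treated mice. Here 8 of 8 genes had a log2FC above 0, and 4 of them were called. No gene of these 2 lists was at 0 in any library, and their part in the *Fzd3* and *Lrp6* results was not tested. Crypt base markers summed to between 153 and 165 in control mice and between 135 and 172 in treated mice. Of these, 3 of 6 genes had a log2FC above 0, and *Olfm4* was at 0 in at least 1 library. Smooth muscle markers summed to between 21.9 and 93.4 in control mice and to 5.72, 4.84 and 127 in treated mice 1, 2 and 3. Among them 7 of 8 genes had a log2FC below 0, and *Lmod1* was at 0 in at least 1 library. The part of smooth muscle RNA in the receptor results was not tested. Fibroblast markers summed to between 222 and 281 in control mice and between 268 and 402 in treated mice. The log2FC was below 0 for 6 of 8 genes, and *Lum* was at 0 in at least 1 library. Endothelial markers lay between 4.66 and 7.09 in control mice and at 1.98, 2.18 and 11.5 in treated mice 1, 2 and 3. In that list 7 of 7 genes had a log2FC below 0. Pericyte markers lay between 16.7 and 23.6 in control mice and between 11 and 27.1 in treated mice. Of these, 3 of 5 genes had a log2FC below 0. Among immune lists, macrophage markers lay between 17.3 and 25.2 in control mice and at 10.1, 6.23 and 35.5 in treated mice 1, 2 and 3. The log2FC was below 0 for 7 of 7 macrophage genes. B cell markers lay between 22 and 75 in control mice and at 3.66, 1.95 and 61.4 in treated mice 1, 2 and 3. Among them 6 of 6 genes had a log2FC below 0, and *Cd79a* was at 0 in at least 1 library. T cell markers lay between 11.7 and 18.6 in control mice and between 11 and 14.3 in treated mice. Here 5 of 7 genes had a log2FC below 0. Markers of enteric neurons and glia lay between 8.4 and 10.9 in control mice and between 6.01 and 6.88 in treated mice. Of their 5 tested genes 4 had a log2FC above 0 and 1 below 0, and *Sox10*, *Elavl4* and *Gfap* were at 0 in at least 1 library.

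The other Wnt pathway genes were described from 8 lists. Of their 112 genes, 95 were in the table and 88 were tested. None passed a limma adjusted p of 0.05, where 0.642% of all genes tested did. With limma-voom the count was also 0, and 12 had an unadjusted limma p below 0.05, which 13.3% of all genes reached. Log2FC was above 0 for 42 and below 0 for 46, with a median of -0.01, equal to that of all genes. Below a limma adjusted p of 0.1, which 1.97% of all genes reached, was 1 gene of the lists. This was *Atp6ap2*, for an accessory protein of the vacuolar proton pump that also binds LRP6. It had 116, 127 and 111 TMM-scaled counts in the controls and 142, 168 and 156 with GSK503, with every treated mouse above the controls (log2FC 0.40, limma adjusted p = 0.0785). *Atp6ap2* lies on the X chromosome, and sex-linked expression separated the groups. It belongs to a list of 10 genes for folding and phosphorylation of the receptors, of which 5 had a higher and 5 a lower mean. In that list *Gprc5a*, an orphan G protein-coupled receptor, had the largest log2FC, 0.55 (limma adjusted p = 0.196).

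Wnt ligands in the table had low values, the highest being 4.73 for *Wnt5a* in control mouse 2. *Wls*, a gene for ligand secretion named after its values were seen, had between 108 and 137. Of 21 genes for Wnt ligands and their secretion, 13 were in the table. Of these, 8 were tested, 4 with a higher and 4 with a lower mean. Any gene filter of the authors is not given, so absence from the table does not give a level. *Wnt5a*, a ligand that often acts without β-catenin, had 3.52, 4.73 and 4.14 in the controls and 2.25, 2.64 and 2.18 with GSK503, and the groups did not overlap (log2FC -0.78, limma adjusted p = 0.142). *Wnt5b*, with values below 1 in each mouse, had a log2FC of -0.69 with overlapping groups (limma adjusted p = 0.628).

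The R-spondin receptor LGR4 and its relatives protect Frizzleds by removing the ubiquitin ligases RNF43 and ZNRF3, which otherwise send Frizzleds to the lysosome. Of 5 tested genes of this list, 2 had a higher and 3 a lower mean. *Lgr4* had 182, 207 and 237 TMM-scaled counts in the controls and 152, 146 and 167 with GSK503, with every treated mouse below the controls (log2FC -0.42, limma adjusted p = 0.106). With scaling by library size alone its log2FC was -0.53 (limma adjusted p = 0.046). *Znrf3* had 13, 13.5 and 14.1 in the controls and 11.6, 11.7 and 13 with GSK503 (log2FC -0.17, limma adjusted p = 0.565). *Rnf43* and *Lgr5* overlapped between the groups, at log2FC values of -0.08 and 0.02 (limma adjusted p = 0.808 and 0.981). *Rspo1*, an R-spondin with values below 1 in each mouse, had a log2FC of 0.31 (limma adjusted p = 0.773).

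In the cytoplasm and nucleus, 10 of 26 genes had a higher and 16 a lower mean, with a median log2FC of -0.02. *Axin2*, a widely used readout of Wnt signalling through β-catenin, had 58, 57.2 and 49.8 in the controls and 52.3, 42.7 and 61.7 with GSK503 (log2FC -0.09, limma adjusted p = 0.824). Treated mouse 2 was below and treated mouse 3 above every control. The largest differences were those of *Nkd1*, an inhibitor of Dishevelled, at 0.38 and of *Tnks*, which marks Axin for degradation, at -0.33 (limma adjusted p = 0.594 and 0.246).

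Of 9 tested extracellular inhibitors, 4 had a higher and 5 a lower mean, and the largest differences were those of *Sfrp1* at -1.13 and *Dkk3* at -0.87 (limma adjusted p = 0.47 and 0.527). Without treated mouse 3, *Sfrp1* had a log2FC of -1.94 (limma adjusted p = 0.0356). Among 10 other Wnt receptors, 7 had a higher and 3 a lower mean, with *Reck* at -0.85 and *Musk* at 0.68 (limma adjusted p = 0.554 and 0.569), both at values below 1. For *Fzd9* and *Fzd10*, the Frizzleds outside the 10 genes, the log2FC was 0.19 and -0.21 (limma adjusted p = 0.833 and 0.789). In the planar polarity core, log2FC was above 0 for 3 of 9 genes and below 0 for 6. *Vangl2* was at -0.38 and *Prickle4*, with values below 1 in each mouse, at 0.33 (limma adjusted p = 0.552 and 0.863). In *Vangl1*, named after its values were seen, each treated mouse lay below all 3 controls (log2FC -0.29, limma adjusted p = 0.337). This pattern was found in 9.22% of all genes, and the groups overlapped in the other planar polarity genes. Of 11 other genes related to the coreceptors, 7 had a higher and 4 a lower mean. The largest differences there were those of *Lrp3* at 0.77 and *Lrp2* at 0.71 (limma adjusted p = 0.579 and 0.659), both with values below 1 in each mouse.

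**Figure D5:**
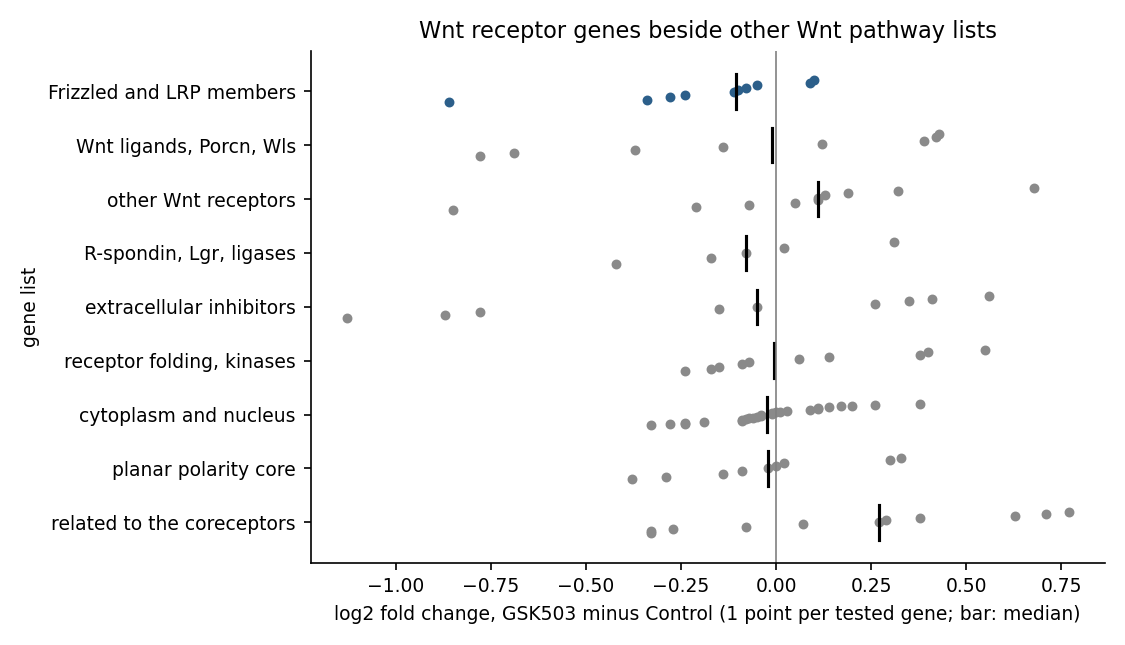
Log2 fold change of each tested gene, treated minus control mice, by gene list, with 1 point per gene and a black bar at the median. The receptor genes had a median of -0.10, and the medians of the other lists ran from -0.08 for the R-spondin list to 0.27 for the other genes related to the coreceptors.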

How the data were processed

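Total RNA from the colonic crypts of mice was sequenced in 6 libraries as paired 76-base reads after a stranded preparation. Per the paper's methods, the authors aligned reads to GRCm39 with STAR, quantified genes by RSEM and applied TMM scaling from edgeR. The deposited signal of a gene is thus its estimated count after scaling by library size and TMM factor, and the annotation and any gene filter are not given in the sources used here. Below 200 counts, between 83.7% and 85.8% of the values in a library were whole multiples (within 0.02) of the worth of 1 count, which gave the estimated totals. Each library was taken as 1 mouse, which the labels do not state, so p-values measure the spread between these libraries. Because the values are not raw counts, groups were compared with limma (version 3.58.1, R 4.3.3) on log2(value + 0.1) with an intensity trend, two-sided, over 16670 genes with at least 0.1 in at least 3 mice. Log2FC on this scale understates changes of low genes. Values of single mice were compared by exact permutation tests, which cannot give a p under 0.1. Whether reads were counted by strand is not given, and all members but *Fzd1* and *Fzd8* overlap another annotated gene of GENCODE vM39, none of them in the table. Gene lists, members and tests were chosen with earlier results of these data known. Named genes were the members, *Axin2*, *Lgr5*, *Rnf43*, *Znrf3*, *Ezh2*, *Xist* and *Uty*, and in each list genes with an adjusted p below 0.1 and, where fewer than 2 were so, the 2 with the largest log2FC in either direction. No member spanned 4-fold over the mice, so none was matched to genes of like pattern. *Fzd9* and *Fzd10*, named as the remaining Frizzleds, were added after their values were seen. Alternatives were other pseudocounts, filters, scalings and variance settings, limma-voom, a replicate block, leaving out sex-linked genes, leaving out each mouse, and other gene lengths. The gene deleted in the mice and some results are not reported here.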

Additional observations from a re-analysis of the deposited data

How the results depend on the processing

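The number of members below an adjusted p of 0.05 (limma) was 0, and 1 with scaling by library size alone (*Fzd3*). With each mouse left out in turn it lay between 0 and 1, the 1 being *Fzd3* without control mouse 1. Over all genes, 107 were called. The count was 70 without a filter, 261 with library size alone, 16 without the intensity trend and between 29 and 216 with each mouse left out. With library size alone the higher calls numbered 83, as before, and the lower calls went from 24 to 178, so the higher share went from 77.6% to 31.8%. Among the pathway lists the count was 2 with library size alone, *Lgr4* and *Lrp4*, the latter named after its value was seen, and between 0 and 1 with each mouse left out. Library size alone shifted the median of all genes from -0.01 to -0.12, and with it *Fzd1* to -0.01 and *Fzd2* to -0.02. With each mouse left out, log2FC ranged from -0.04 to 0.18 for *Fzd2*, from -0.17 to 0.01 for *Fzd4* and from -0.11 to 0.04 for *Lrp5*. Leaving out 1 mouse changed the sign of *Fzd2* to -0.01 (control mouse 1) and -0.04 (treated mouse 3), of *Fzd4* to 0.01 (treated mouse 1) and of *Lrp5* to 0.03 (control mouse 3) and 0.04 (treated mouse 3). Without the length correction the share of *Fzd5* and *Fzd8* turned to 0.49 points higher in treated mice. The causes were not tested. With the replicate number as a block, 33 genes and 0 members were called. The deviations of mice with the same number correlated at 0.03, -0.13 and -0.12, which shows no sign of pairing in expression. Such correlations cannot exclude that the numbers pair the mice. The block left the *Lrp5* to *Lrp6* difference at 0.23. With 3 mice per group, the intervals given for each member limit what could be detected.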

Other observations

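*Sfrp1* and *Dkk3*, secreted proteins of the Wnt inhibitor list, split the treated mice. *Sfrp1* had 1.91, 3.46 and 2.31 TMM-scaled counts in control mice and 0.653, 0.502 and 3.55 in treated mice. *Dkk3* had 1.32, 2.22 and 1.13 in control mice and 0.492, 0.414 and 2.07 in treated mice. For both genes treated mice 1 and 2 were lower than the control mice and treated mouse 3 was not. The smooth muscle markers summed to 21.9, 93.4 and 49.5 in control mice and to 5.72, 4.84 and 127 in treated mice, and treated mouse 3 stood above the other two here as well. It also did so in the B cell markers (3.66, 1.95 and 61.4 in treated mice 1, 2 and 3), the macrophage markers (10.1, 6.23 and 35.5) and the endothelial markers (1.98, 2.18 and 11.5). The part of any of these cell types in the *Sfrp1* and *Dkk3* values was not tested. Among the receptor genes, the highest mouse was between 1.19 and 2.59 times the lowest, and *Fzd2*, at 3.08, was the 1 gene in which treated mouse 3 stood highest of the 6 mice.

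*Lrp4*, the agrin receptor of the neuromuscular junction, had 77.2, 74.1 and 70.3 in control mice and 61.8, 57.7 and 64.2 in treated mice (log2FC -0.27, limma adjusted p = 0.158). The groups did not overlap in *Lrp4*, which was chosen after its values were seen.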
